A study of Homo sapiens with 60 samples.

Results

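Of the 60 RNA sequencing libraries of the series, 4 come from A549 cells given the ethanol extract of Aucklandiae Radix at its medium or its low dose. They were chosen by their sample titles. The medium dose was 74 µg/mL (2 libraries, replicates 2 and 3) and the low dose 14.8 µg/mL (2 libraries, replicates 2 and 3), and both were collected at 24 h. A549 is an established human lung carcinoma line, used here without a genetic change in any group. The extract was made from the dried root with 70% ethanol. By the description of the series, an extract with an IC20 (the concentration that lowers viability by that share) below the usual top dose was given at its IC20 and at a 5-fold and a 25-fold dilution of it. Aucklandiae Radix is such an extract, and its medium dose lies 5-fold below the high dose of 370 µg/mL (2 libraries). The question is which transcripts already differ at the medium dose. Polygalae Radix (76 and 15.2 µg/mL, 2 libraries each) and Menthae Herba (100 and 20 µg/mL, 3 libraries each) serve to show where the step from low to medium dose differs between extracts. The vehicle group held 3 libraries of cells given DMSO, stated as 0.1% in the sample labels and as 2% in the series description. All groups are of 1 cell line, and whether the replicates came from different cultures is not labelled.

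Aucklandiae Radix is the dried root of costus, a medicinal plant known for sesquiterpene lactones such as costunolide and dehydrocostus lactone. Their reactive methylene group binds cysteine thiols of glutathione and of proteins. In cultured cells such compounds are known to engage thiol sensors: KEAP1, which holds the transcription factor NRF2 in check; the chaperones that hold back the heat shock factor HSF1; and the kinase that activates NF-kB. Damage that follows can activate p53, which induces CDKN1A and MDM2, and can slow entry into mitosis.

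The 4 libraries were close in depth, with 28232815 and 26014381 expected counts at the medium dose and 27196798 and 28470636 at the low dose. The series ran from 17113963 to 33363661. Several epithelial genes were abundant and most markers of other cells were not. Of 10 immune markers, 7 lay under 1 CPM (counts relative to the normalised library total) in all 4 libraries, and of 10 fibroblast and endothelial markers 8 did. Of 14 epithelial markers, 4 did as well. EPCAM of that list had 4.30 to 5.41 CPM, while COL1A1 of the fibroblast list had 27.3 to 32.2 CPM. The lung lineage markers SFTPC and NKX2-1 were at or near 0, so defining markers of alveolar cells were absent while keratins of simple epithelia were abundant. The 14 epithelial markers summed to 16956 to 17043 CPM at the medium dose and 19132 to 19187 CPM at the low dose. The libraries of the series fall into 2 classes by the level of the unnamed gene ENSG00000282955. All 6 Aucklandiae Radix libraries, at 0.46 to 3.45 CPM, belong to the lower class of 38 libraries, whereas the vehicle libraries, at 20.6 CPM or more, belong to the other. Dose comparisons within the extract therefore stay inside a class, and extract and class cannot be told apart in any comparison with vehicle, whose means are given below only as levels. Low dose replicate 2 stands apart from the other 3 libraries. Mitochondrially encoded mRNAs made up 7.05% of its counts, against 5.39% in low dose replicate 3, and 5.63% and 5.50% at the medium dose. Its values relative to replicate 3 fell with gene length, with a Spearman rho of -0.37 across 11415 genes, against 0.06 between the 2 medium dose libraries. Genes are not independent replicates, and the rho is a description of these libraries.

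Between the medium and the low dose 1 gene passed the test, and the intervals of most well expressed genes were narrow around 0. That is 1 of 18396 genes tested at an adjusted p of 0.05 (edgeR quasi-likelihood test over 57 libraries, Benjamini-Hochberg adjustment), or 0.00544%. It was lower at the medium dose, and none passed at 2-fold or more. An unadjusted p under 0.05 was reached by 775 genes (4.21%), of which 351 were higher (1.91%) and 424 lower (2.30%). Among the 11443 genes whose log2 CPM averaged 2 or more over the 4 libraries, the median standard error of the log2 fold change was 0.11. For 99.1% of these genes the 95% interval lay inside a 2-fold change in either direction, and for 88.1% it lay inside 0.5 on the log2 scale. Over all genes tested these shares were 75.9% and 56.4%, so for many weakly expressed genes a 2-fold difference was not detectable at this depth with 2 libraries a dose. In such bulk libraries a loss of the cells that hold a transcript and less of it per cell cannot be told apart.

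More genes passed at the next step. From medium to high dose 2875 genes (15.6%) passed, 1421 higher (7.72%) and 1454 lower (7.90%), and 388 of them changed at least 2-fold (2.11%). High against low dose gave 3394 genes (18.4%). Both steps use the same medium dose libraries and span the same 5-fold ratio of dose. Among the 11443 better expressed genes the median absolute log2 fold change was 0.07 for medium against low dose and 0.15 for high against medium dose. A direct test of the difference between the steps, high minus medium minus the change from low to medium, was passed by 647 genes (3.52%). Its value was positive for 259 (1.41%) and negative for 388 (2.11%). Without medium dose replicate 2 the test was passed by 209 genes and without medium dose replicate 3 by 191, and the high against medium comparison gave 1753 to 1904 genes with 1 library left out.

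**Figure D1:**
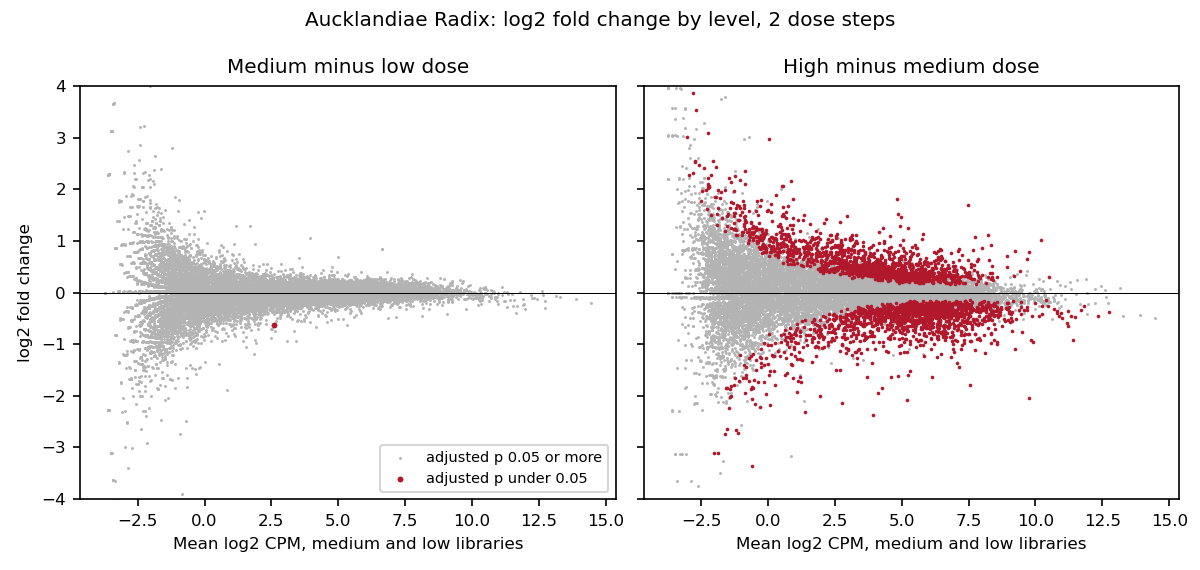
Log2 fold change (vertical axis) against mean log2 CPM of the medium and low dose libraries (horizontal axis) for 18396 genes, medium minus low dose on the left and high minus medium dose on the right. Red points passed an adjusted p of 0.05: 1 gene on the left and 2875 on the right, and 62 genes on the left and 68 on the right lie beyond the axis limit of 4.

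PSD4 was the gene that fell at the medium dose. It encodes an exchange factor that activates the small GTPase ARF6, and lies at chr2:113157325-113209396 on the plus strand (GRCh38, GENCODE 29). Its level was 4.60 and 4.89 CPM at the medium dose, against 6.89 and 7.84 CPM at the low dose. Both medium dose libraries lay below both low dose libraries, as for 21.7% of all genes tested. In either direction the doses did not overlap in 43.2% of genes, and 21.5% had both medium dose libraries above. The log2 fold change was -0.64 ± 0.11 (SE; 95% interval -0.85 to -0.42; adjusted p = 0.0131, edgeR). At the high dose PSD4 stood at 6.33 and 6.47 CPM, again above the medium dose, with a log2 fold change of 0.43 ± 0.11 between high and medium dose (adjusted p = 0.00364, edgeR), and the steps differed by 1.07 ± 0.19 (adjusted p = 0.000307, edgeR). PSD4 was picked for its low medium dose values, and both of these tests use the same medium dose libraries. They are therefore not independent support for a return at the high dose. Vehicle libraries averaged 7.76 ± 0.10 CPM (SD, n = 3). The call rests on few counts, 260 in all at the medium dose and 410 at the low dose. It did not pass without medium dose replicate 2 (adjusted p = 0.817), without medium dose replicate 3 (0.247) or without low dose replicate 3 (0.377), nor in fits of the extract's own 6 libraries (0.0905) or of the 4 libraries alone (0.105), nor with no filter on low counts (0.0644). PSD4 passed without low dose replicate 2 (adjusted p = 0.0261, edgeR), in the DESeq2 Wald test (0.00868) and in the 38 libraries of the class (0.0111).

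No other gene passed that test, but 18 genes including PSD4 had an adjusted p under 0.15, a limit set after the values were seen. Of these, 17 were lower at the medium dose. To see which of them depend on how the spread is estimated, the comparison was repeated in 4 other ways: the DESeq2 Wald test, edgeR on the 38 libraries of the same class, on the 6 libraries of the extract, and on the 4 libraries alone. These gave 16 genes (0.087%), 31 genes (0.169%), 24 genes (0.131%) and 34 genes (0.185%). All of these fits hold the same 4 libraries, so they are not independent of each other. In all 4 of them 9 genes passed, and all 9 were lower at the medium dose: CRYAB, TM4SF4, C3, KRT4, PTK2B, HR, TGM2, NUAK2 and MGLL. In the edgeR fit that gave the 1 gene above, the adjusted p of the 9 was 0.105 to 0.114. The 18 genes with their intervals at both dose steps appear in the plot of log2 fold changes by gene.

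**Figure D2:**
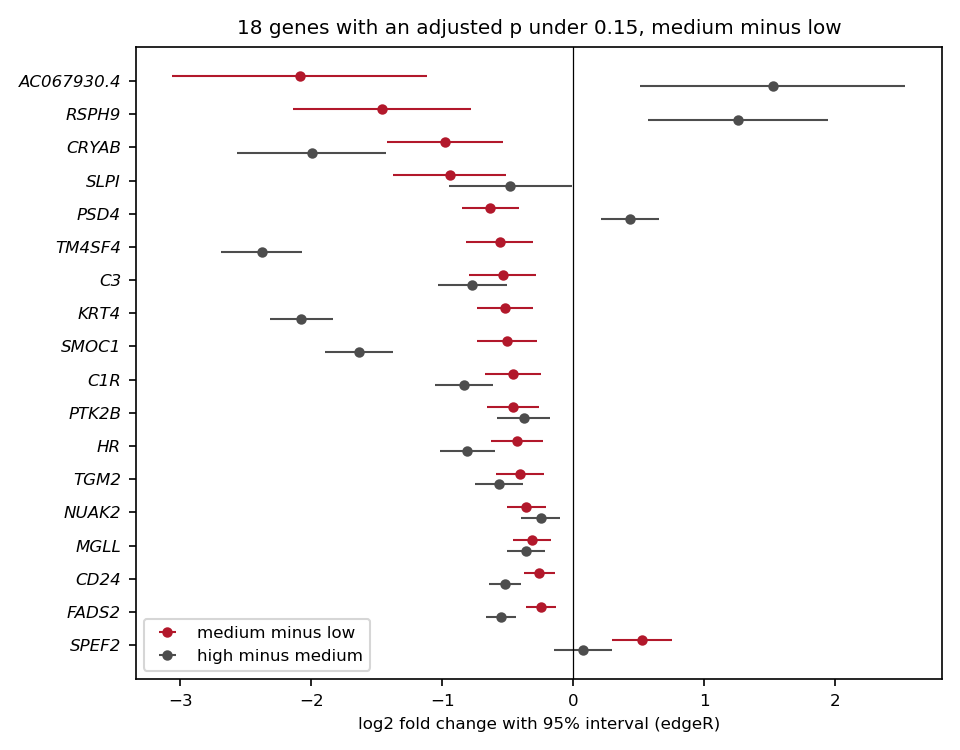
Log2 fold change with 95% interval (edgeR, horizontal axis) of the 18 genes with an adjusted p under 0.15 at medium minus low dose (red), with high minus medium dose in grey. For medium minus low dose 17 intervals lie below 0 and that of SPEF2 above 0. PSD4, RSPH9 and AC067930.4 have high minus medium intervals above 0. The genes were chosen by the red values, and both steps use the same medium dose libraries.

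Epithelial structure and surface genes were among them. KRT4, a keratin of mucosal epithelia, had 29.8 and 31.1 CPM at the medium dose, against 46.2 and 41.3 CPM at the low dose. The 2 doses did not overlap. Its log2 fold change was -0.52 ± 0.10 (SE; adjusted p = 0.105, edgeR; 0.00371 to 0.0319 in the 4 other fits). At the high dose it fell further, to 6.44 and 7.97 CPM, a log2 fold change of -2.08 ± 0.12 from the medium dose (adjusted p = 7.95e-17, edgeR). TM4SF4, a cell surface membrane protein, had 12.2 and 12.9 CPM at the medium dose, against 17.9 and 19.1 CPM at the low dose, again without overlap. Its log2 fold change was -0.56 ± 0.13 (adjusted p = 0.112, edgeR; 0.000692 to 0.0361 in the other fits), and it fell to 2.63 and 2.18 CPM at the high dose. For both genes the step to the high dose was the larger, by -1.56 ± 0.19 for KRT4 (adjusted p = 2.59e-07, edgeR) and -1.82 ± 0.24 for TM4SF4 (adjusted p = 1.15e-06, edgeR). CD24, a glycoprotein of the epithelial surface, had 195 and 207 CPM at the medium dose and 242 and 241 CPM at the low dose (adjusted p = 0.112, edgeR). SMOC1, a secreted calcium-binding protein of basement membranes, had 10.1 and 11.7 CPM at the medium dose and 15.7 and 15.1 CPM at the low dose (adjusted p = 0.112, edgeR). Of the 4 other fits CD24 passed in 1 and SMOC1 in 2.

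The promoters of PSD4, KRT4, TM4SF4 and NUAK2 are shown as examples with a start site in the RefSeq table (GRCh38.p14). These genes were lower at the medium dose and passed in the main test or in all 4 of the other fits. Each sequence runs from 250 bases before to 50 bases after the start, 5′ to 3′ on the gene's own strand. Capitals mark matches on either strand to CCAAT, the box bound by NF-Y, or to TGANTCA, the element bound by FOS and JUN dimers. Of 12170 tested genes with a promoter in the table, 36.0% hold CCAAT and 4.8% hold TGANTCA in the same window. The window of PSD4 at chr2:113173721-113174020 (plus strand) and that of KRT4 at chr12:52814067-52814366 (minus strand) hold neither. That of TM4SF4 at chr3:149474447-149474746 (plus strand) holds 1 CCAAT match, and that of NUAK2 at chr1:205321696-205321995 (minus strand) holds 2.
PSD4: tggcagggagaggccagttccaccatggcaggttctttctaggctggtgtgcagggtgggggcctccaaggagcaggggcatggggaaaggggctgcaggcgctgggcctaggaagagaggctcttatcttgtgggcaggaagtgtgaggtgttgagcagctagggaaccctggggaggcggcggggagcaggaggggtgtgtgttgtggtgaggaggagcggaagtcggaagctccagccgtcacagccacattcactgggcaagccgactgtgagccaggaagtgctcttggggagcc
KRT4: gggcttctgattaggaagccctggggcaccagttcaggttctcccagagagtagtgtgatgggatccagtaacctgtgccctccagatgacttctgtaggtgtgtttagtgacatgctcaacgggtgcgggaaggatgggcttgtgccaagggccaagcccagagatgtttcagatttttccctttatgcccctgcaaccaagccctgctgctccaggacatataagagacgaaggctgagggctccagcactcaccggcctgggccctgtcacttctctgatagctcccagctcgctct
TM4SF4: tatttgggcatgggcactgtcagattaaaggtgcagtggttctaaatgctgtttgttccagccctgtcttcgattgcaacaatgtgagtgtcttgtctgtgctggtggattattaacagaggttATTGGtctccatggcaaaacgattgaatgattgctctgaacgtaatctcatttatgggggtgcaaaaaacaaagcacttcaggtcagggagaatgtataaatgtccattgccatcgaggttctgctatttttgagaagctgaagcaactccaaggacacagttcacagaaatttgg
NUAK2: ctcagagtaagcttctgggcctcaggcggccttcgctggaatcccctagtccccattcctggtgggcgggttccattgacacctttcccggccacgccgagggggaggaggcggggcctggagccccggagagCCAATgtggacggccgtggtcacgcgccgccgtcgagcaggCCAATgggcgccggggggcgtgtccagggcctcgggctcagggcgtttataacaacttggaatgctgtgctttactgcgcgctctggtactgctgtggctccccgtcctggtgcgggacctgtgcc

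The remaining genes of the 9 have other roles. CRYAB, the small heat shock protein alpha-B-crystallin, had 2.67 and 2.65 CPM at the medium dose, against 5.21 and 5.30 CPM at the low dose. The doses did not overlap, and the log2 fold change was -0.98 ± 0.22 (adjusted p = 0.112, edgeR; 0.00446 to 0.0328 in the other fits). It fell again to 0.68 and 0.65 CPM at the high dose (adjusted p = 7.04e-07, edgeR). TGM2, a transglutaminase that crosslinks proteins, was the most abundant of the 9, with 464 and 464 CPM at the medium dose, against 617 and 616 CPM at the low dose. Its log2 fold change was -0.41 ± 0.09 (adjusted p = 0.112, edgeR; 0.000692 to 0.00868 in the other fits), and at the high dose it fell to 319 and 307 CPM (adjusted p = 8.38e-06, edgeR). C3, the central complement protein, had 23.1 and 21.2 CPM at the medium dose and 29.9 and 34.5 CPM at the low dose (log2 fold change -0.54 ± 0.13, adjusted p = 0.114, edgeR). C1R, a protease of the first complement complex, had 18.4 and 21.5 CPM at the medium dose and 27.1 and 27.9 CPM at the low dose (adjusted p = 0.112, edgeR), and passed in 3 of the 4 other fits. Both complement genes fell at the high dose against the medium dose (log2 fold changes of -0.77 for C3 and -0.83 for C1R).

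The others of the 9 are the kinases PTK2B and NUAK2, the lipase MGLL and the corepressor HR. PTK2B, a tyrosine kinase related to the focal adhesion kinase, had 15.6 and 16.3 CPM at the medium dose, against 22.6 and 21.3 CPM at the low dose. NUAK2, a kinase related to AMPK, had 40.3 and 38.6 CPM at the medium dose and 52.0 and 49.2 CPM at the low dose. MGLL, which cleaves monoacylglycerols, had 48.8 and 50.2 CPM at the medium dose and 61.6 and 61.6 CPM at the low dose. In each of the 3 genes the doses did not overlap, and the test of the difference between the steps did not pass (adjusted p = 0.925, 0.835 and 0.943, edgeR). The differences between the steps were 0.08 ± 0.17 for PTK2B, 0.11 ± 0.13 for NUAK2 and -0.05 ± 0.12 for MGLL, so the step from low to medium could not be told from the next step. HR, which acts with nuclear receptors, had 42.8 and 43.6 CPM at the medium dose and 58.6 and 57.9 CPM at the low dose (log2 fold change -0.43 ± 0.10, adjusted p = 0.113, edgeR). FADS2, a fatty acid desaturase outside the 9, had 426 and 436 CPM at the medium dose and 517 and 506 CPM at the low dose (adjusted p = 0.112, edgeR) and passed in 3 of the other fits.

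The remaining 4 of the 18 genes were weakly expressed or uncertain, and none of them passed in any of the 4 other fits. SLPI, an inhibitor of leukocyte proteases made by airway epithelium, had 1.90 and 1.86 CPM at the medium dose and 3.58 and 3.66 CPM at the low dose (adjusted p = 0.112, edgeR). RSPH9, a part of the radial spokes of motile cilia, had 1.04 and 1.08 CPM at the low, 0.42 and 0.34 CPM at the medium and 1.00 and 0.85 CPM at the high dose. AC067930.4, an RNA annotated as antisense, had 0.14 and 0.11 CPM at the medium dose and 0.56 and 0.56 CPM at the low dose. The sources used here do not state whether counting used the strand, so its reads cannot be told from those of the gene on the other strand. SPEF2, a protein of sperm flagella and cilia, was the gene of the 18 that was higher, with 5.16 and 4.55 CPM at the medium dose and 3.24 and 3.52 CPM at the low dose (log2 fold change 0.52 ± 0.11, adjusted p = 0.123, edgeR).

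**Figure D3:**
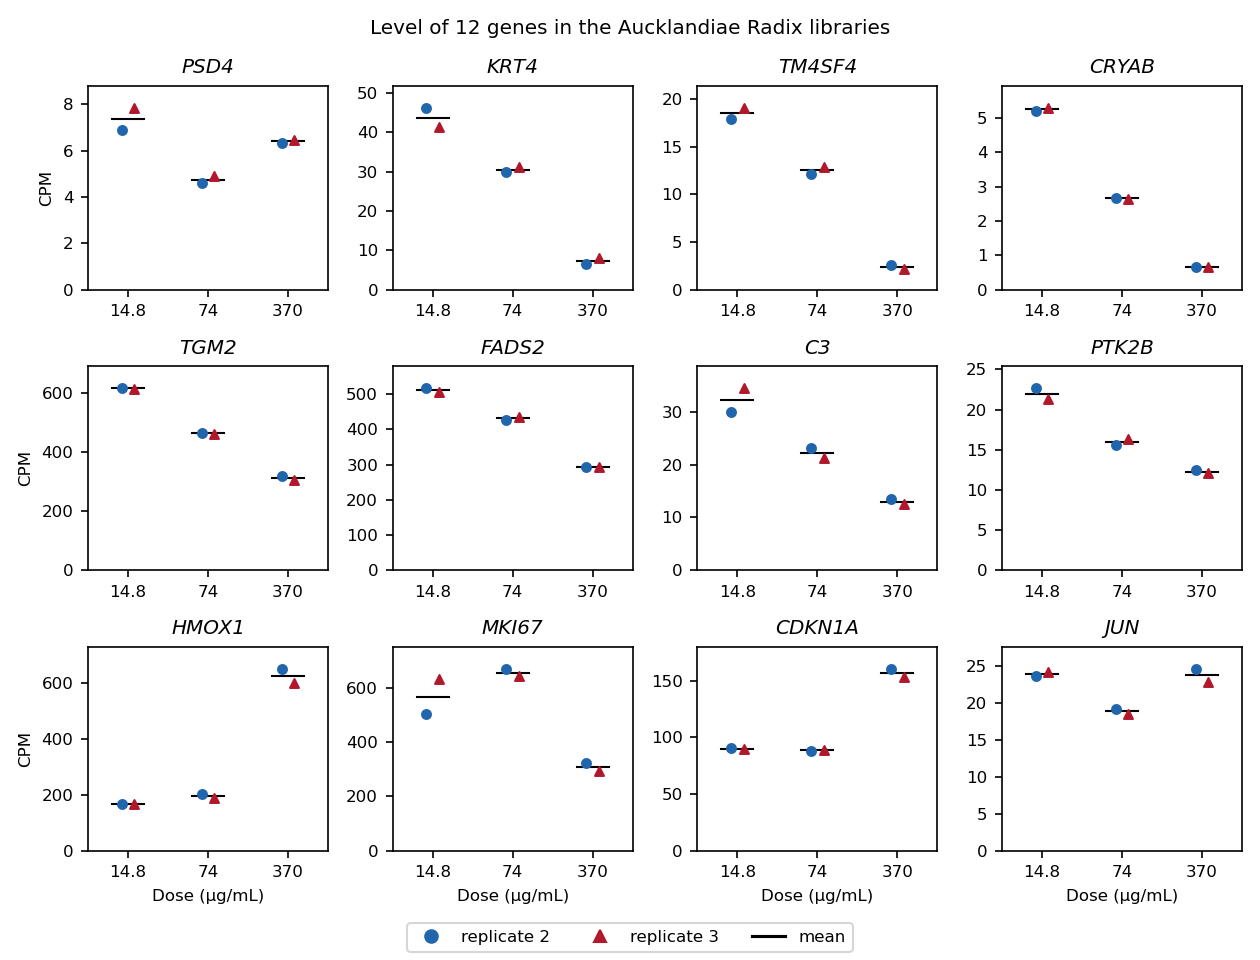
Level in CPM (vertical axis, from 0) of 12 genes in the 6 Aucklandiae Radix libraries by dose in µg/mL (horizontal axis), with replicates 2 and 3 as separate symbols and a line at their mean. KRT4, TM4SF4, CRYAB, TGM2, FADS2, C3 and PTK2B step down at each dose, PSD4 and JUN are lower at 74 µg/mL than at either other dose, and HMOX1, CDKN1A and MKI67 move mainly at 370 µg/mL.

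Among genes whose log2 CPM averaged 2 or more over the medium and low dose libraries, the 4 with the highest difference between the steps were the gene of carboxypeptidase M, BIRC3, CCL2 and HMOX1. They rose at the high dose, with smaller values at the medium dose. HMOX1, the heme oxygenase induced by NRF2, had 201 and 188 CPM at the medium dose, against 166 and 168 CPM at the low dose. The doses did not overlap, but the log2 fold change of 0.22 ± 0.08 had an unadjusted p of 0.00756 and an adjusted p of 1 (edgeR). At the high dose it rose to 652 and 602 CPM, and the steps differed by 1.46 ± 0.14 (adjusted p = 4.29e-09, edgeR). BIRC3, an inhibitor of apoptosis induced by NF-kB, had 31.6 and 29.8 CPM at the medium dose and 23.6 and 27.9 CPM at the low dose, and rose to 112 and 104 CPM at the high dose. Its steps differed by 1.56 ± 0.25 (adjusted p = 3.96e-05, edgeR). CCL2, a monocyte chemokine, overlapped between medium dose (3.44 and 4.55 CPM) and low dose (4.43 and 4.67 CPM), and rose to 10.6 and 9.76 CPM at the high dose (steps differed by 1.54 ± 0.39, adjusted p = 0.0139, edgeR; adjusted p = 0.431 without medium dose replicate 2). The gene of carboxypeptidase M, whose symbol is also CPM, had levels of 7.45 and 7.20 on the CPM scale at the medium dose and 8.08 and 8.12 at the low dose, and rose to 21.6 and 19.4 at the high dose (steps differed by 1.63 ± 0.23, adjusted p = 3.65e-06, edgeR).

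With the same limit on the level, the 4 genes with the most negative difference between the steps were TPPP3, IGFBP5, TM4SF4 and CPLX2. IGFBP5, a binding protein of insulin-like growth factors, had 17.99 and 15.7 CPM at the medium dose and 19.1 and 17.1 CPM at the low dose, with overlap, and fell to 4.83 and 3.94 CPM at the high dose. CPLX2, a regulator of vesicle fusion, had 742 and 800 CPM at the medium dose and 935 and 1001 CPM at the low dose, without overlap, and fell to 161 and 214 CPM at the high dose. Its log2 fold changes were -0.33 ± 0.11 at medium against low dose (adjusted p = 0.842, edgeR) and -2.04 ± 0.11 at high against medium dose. TPPP3, which promotes tubulin polymerization, had 5.76 and 6.60 CPM at the medium dose and 7.52 and 7.36 CPM at the low dose, and fell to 1.17 and 1.63 CPM at the high dose. The differences between the steps were -1.84 ± 0.21 for IGFBP5, -1.71 ± 0.18 for CPLX2 and -1.86 ± 0.35 for TPPP3 (adjusted p = 8.70e-08, 1.38e-08 and 0.000664, edgeR). For TPPP3 the adjusted p was 0.0537 without medium dose replicate 3.

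In the edgeR fit over all libraries no gene of the pathways tied to thiol-reactive compounds passed at medium against low dose. Of the heat shock list, CRYAB passed in all 4 other fits and HSPB1 in 1. GPX1, of the glutathione list, and the metallothionein MT1X each passed in 2, and all of these genes were lower at the medium dose. Of 3 metallothioneins tested 0 lay above 0, with a median log2 fold change of -0.52 and 2 at an unadjusted p under 0.05 (edgeR). NRF2 controls enzymes that make glutathione and reduce quinones. Of 26 NRF2 targets, 0 passed at medium against low dose (2 at an unadjusted p under 0.05), 13 values lay above 0 and 13 below, and their median log2 fold change was 0.00 (range -0.94 to 0.25). Over all genes tested 49.3% lay above 0 and the median was -0.00. GCLM, the modifier subunit of glutamate-cysteine ligase, had 261 and 264 CPM at the medium dose and 234 and 243 CPM at the low dose. NQO1, a quinone reductase, had 1780 and 1789 CPM at the medium dose and 1767 and 1734 CPM at the low dose. TXNRD1, a thioredoxin reductase, had 2317 and 2271 CPM at the medium dose and 2110 and 2142 CPM at the low dose, a log2 fold change of 0.11 ± 0.12. UGT1A6, a glucuronosyltransferase whose exons are partly shared with its family, had the lowest value of the list, -0.94, with 0.738 and 0.834 CPM at the medium dose and 1.64 and 1.4 CPM at the low dose (unadjusted p = 0.00893, adjusted p = 1, edgeR). For 23 of the 26 targets the 95% interval lay inside 0.5 on the log2 scale. At high against medium dose 1 target rose (HMOX1) and 7 fell, against 7.72% and 7.90% of all genes tested. Among those that fell was AKR1B10, an aldo-keto reductase, at 1287 and 1458 CPM at the high dose and 2572 and 2620 CPM at the medium dose.

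Heat shock genes encode the chaperones that HSF1 induces. Of 20, 0 passed at medium against low dose (1, CRYAB, at an unadjusted p under 0.05, which passed in all 4 other fits at an adjusted p of 0.00446 to 0.0328) and their median log2 fold change was 0.01 (range -0.98 to 0.14). HSPA1A, an inducible chaperone, had 241 and 228 CPM at the medium dose and 261 and 249 CPM at the low dose. Its near-identical copy HSPA1B had 134 and 129 CPM at the medium dose and 134 and 143 CPM at the low dose, and the estimation of counts can split reads between the pair. HSP90AA1 had 2423 and 2346 CPM at the medium dose and 2384 and 2339 CPM at the low dose. At high against medium dose 11 of the 20 fell and 1 rose (HSPB8), against 7.90% and 7.72% of all genes tested.

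Of 24 genes of the integrated stress response, which ATF4 drives when translation is slowed, 0 passed at medium against low dose (2 at an unadjusted p under 0.05), with a median of -0.00 (range -0.40 to 0.25). ASNS, which makes asparagine, had 134 and 131 CPM at the medium dose and 115 and 109 CPM at the low dose, without overlap (log2 fold change 0.24 ± 0.08, unadjusted p = 0.00328, adjusted p = 0.821, edgeR). PSAT1, of serine synthesis, had 329 and 321 CPM at the medium dose and 289 and 276 CPM at the low dose (adjusted p = 1, edgeR). DDIT3, which encodes CHOP, had 9.20 and 7.77 CPM at the medium dose and 8.27 and 8.26 CPM at the low dose, and rose to 17.3 and 17.9 CPM at the high dose.

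p53 targets differed between the steps. At medium against low dose 0 of 22 passed and 0 had an unadjusted p under 0.05, with a median log2 fold change of 0.01 (range -0.28 to 0.23), whereas at high against medium dose 17 rose and 0 fell, with a median of 0.72. Over all genes tested 7.72% rose from medium to high dose. The difference between the steps passed for 12 of the 22, all positive, and was positive and passed for 1.41% of all genes tested. CDKN1A, the cyclin-dependent kinase inhibitor p21, had 88.2 and 88.8 CPM at the medium dose, against 90.6 and 89.5 CPM at the low dose, and rose to 161 and 153 CPM at the high dose. Its log2 fold change at medium against low dose was -0.02 ± 0.07, and the steps differed with an adjusted p of 3.90e-06 (edgeR). MDM2, the ligase that degrades p53, had 143 and 141 CPM at the medium dose and 139 and 137 CPM at the low dose, and rose to 256 and 254 CPM at the high dose. BAX, which permeabilizes mitochondria, had 117 and 113 CPM at the medium dose and 120 and 114 CPM at the low dose, and rose to 201 and 190 CPM at the high dose. For 20 of the 22 the interval of medium against low dose lay inside 0.5 on the log2 scale.

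Mitosis genes fell at the high dose, and most had values above 0 at the medium dose without passing. None of 24 passed at medium against low dose, 6 had an unadjusted p under 0.05, and 22 had values above 0, with a median log2 fold change of 0.14. At high against medium dose all 24 fell, with a median of -0.90, and the difference between the steps passed for 23, all negative. Of all genes tested 7.90% fell at that step, and the difference was negative and passed for 2.11%. KIF11, a kinesin that separates the spindle poles, had 176 and 177 CPM at the medium dose, against 138 and 161 CPM at the low dose, and fell to 91.5 and 95.5 CPM at the high dose. Its log2 fold change at medium against low dose was 0.24 ± 0.07 (unadjusted p = 0.00103, adjusted p = 0.563, edgeR). MKI67, the proliferation antigen, had 670 and 642 CPM at the medium dose, against 501 and 631 CPM at the low dose, and fell to 324 and 295 CPM at the high dose. CENPF, a kinetochore protein with a long transcript, had 358 and 356 CPM at the medium dose and 250 and 333 CPM at the low dose. In KIF11, MKI67 and CENPF low dose replicate 2 was the lowest of the 4 libraries, and this is the library whose values fell with gene length. Without it the median of the list was 0.09, with 22 of 24 above 0, and the Spearman rho of the log2 fold change with gene length over 11415 genes was 0.06, against 0.26 with all 4 libraries. The part of that library in the other values was not tested. CDC20, an activator of the anaphase-promoting complex, had 154 and 147 CPM at the medium dose and 154 and 147 CPM at the low dose.

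**Figure D4:**
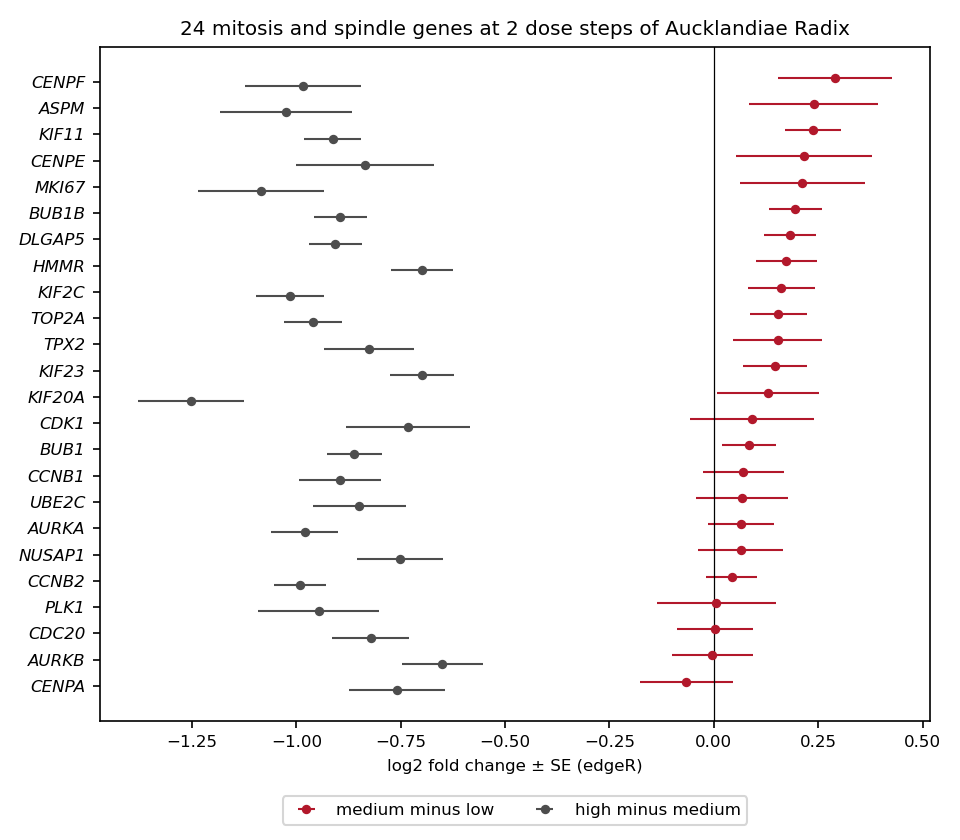
Log2 fold change ± SE (edgeR, horizontal axis) of 24 mitosis and spindle genes at medium minus low dose (red) and at high minus medium dose (grey), sorted by the first. Red points lie between -0.07 and 0.29 and grey points between -1.25 and -0.65.

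Many of the mitosis genes share promoter elements. The list was made with earlier results of these data known, and the shares below describe its members, not an effect of the dose. Of the 24, 21 have a promoter in the RefSeq table (GRCh38.p14, 250 bases before to 50 after the start). CCAAT, on either strand, was in 18 of the 21 (85.7%) and in 36.0% of 12170 tested genes with a promoter. TTTGAA, the cell cycle homology region that the DREAM and B-MYB complexes bind, was in 15 of the 21 (71.4%) and in 10.0% of the tested genes. The promoters of KIF11 at chr10:92592880-92593179 (plus strand) and DLGAP5 at chr14:55191536-55191835 (minus strand) are shown as members with a low unadjusted p at the medium dose, and that of CDC20 at chr1:43358731-43359030 (plus strand) as a member whose value was near 0. Capitals mark CCAAT and TTTGAA or their reverse complements, which do not overlap in these 3 windows, and each window holds both. The window of the member KIF20A, also examined but not printed, holds 2 CCAAT matches and 0 TTTGAA matches. DLGAP5, a spindle protein, had 87.3 and 89.2 CPM at the medium dose and 76.6 and 78.9 CPM at the low dose (log2 fold change 0.18 ± 0.06, unadjusted p = 0.0065, adjusted p = 0.969, edgeR).
KIF11: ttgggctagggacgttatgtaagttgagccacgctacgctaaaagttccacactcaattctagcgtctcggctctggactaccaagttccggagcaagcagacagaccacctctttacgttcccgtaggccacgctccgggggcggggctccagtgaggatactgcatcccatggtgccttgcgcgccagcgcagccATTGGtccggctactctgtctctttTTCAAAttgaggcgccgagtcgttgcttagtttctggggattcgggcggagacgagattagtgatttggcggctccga
DLGAP5: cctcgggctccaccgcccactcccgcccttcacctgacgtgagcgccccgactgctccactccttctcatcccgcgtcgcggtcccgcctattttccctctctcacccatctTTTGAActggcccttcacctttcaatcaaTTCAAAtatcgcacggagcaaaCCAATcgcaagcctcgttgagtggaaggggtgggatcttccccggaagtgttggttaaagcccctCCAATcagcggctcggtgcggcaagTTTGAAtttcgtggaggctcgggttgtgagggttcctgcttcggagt
CDC20: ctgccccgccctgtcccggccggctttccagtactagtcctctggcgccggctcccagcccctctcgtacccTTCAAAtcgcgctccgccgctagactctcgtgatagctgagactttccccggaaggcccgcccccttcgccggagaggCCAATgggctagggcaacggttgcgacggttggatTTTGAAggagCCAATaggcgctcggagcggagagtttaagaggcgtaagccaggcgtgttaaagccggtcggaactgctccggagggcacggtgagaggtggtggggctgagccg

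Several other lists leaned to 1 side at the medium dose without a member that passed in the edgeR fit over all libraries. KRT4 of the keratin list and C3 of the acute-phase list, described above, passed in all 4 other fits. NR4A1 of the immediate early list passed in 1 of them. The members named from these lists below were chosen after their values were seen. The immediate early factors, FOS and JUN proteins and other genes that respond to growth signals within minutes, had 2 of 23 members above 0, with a median log2 fold change of -0.17 and 8 at an unadjusted p under 0.05. JUN had 19.2 and 18.5 CPM at the medium dose, against 23.6 and 24.2 CPM at the low dose, without overlap (log2 fold change -0.34 ± 0.10, adjusted p = 0.536, edgeR). At the high dose it stood at 24.7 and 22.9 CPM, and the steps differed (adjusted p = 0.0106, edgeR). DUSP1, a phosphatase that shuts off MAP kinases, had 109 and 103 CPM at the low, 89.8 and 88.9 CPM at the medium and 115 and 115 CPM at the high dose, and its steps differed as well (adjusted p = 0.0144, edgeR). The step test of JUN and DUSP1 uses the same medium dose values that were seen when they were chosen. It is therefore not independent support for a lower level at the medium dose. At high against medium dose 8 of the 23 rose and 2 fell, against 7.72% and 7.90% of all genes tested, so the share that fell was near that over all genes. EGR1, an early growth response factor, rose to 6.65 and 7.74 CPM at the high dose, against 0.84 and 0.99 CPM at the medium dose.

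Of 11 keratins, 1 lay above 0, with a median of -0.24 and 5 at an unadjusted p under 0.05. KRT8 and KRT18, the paired keratins of simple epithelia, had 2998 and 3077 CPM and 2328 and 2320 CPM at the medium dose. At the low dose KRT8 had 3595 and 3634 CPM and KRT18 had 2842 and 2776 CPM, so neither overlapped between doses. Their log2 fold changes were -0.25 ± 0.12 and -0.27 ± 0.11 (adjusted p = 1 for both, edgeR), and KRT8 passed in 3 of the 4 other fits and KRT18 in 2. Both fell at high against medium dose. Of 11 fibrinogen and acute-phase genes 1 lay above 0, with a median of -0.23. FGB, the fibrinogen beta chain, had 194 and 209 CPM at the medium dose and 224 and 230 CPM at the low dose (adjusted p = 1, edgeR), and fell to 86.1 and 100 CPM at the high dose. Of 12 airway mucin and secretory genes 3 lay above 0, with a median of -0.36. MUC5AC, a gel-forming mucin, had 161 and 174 CPM at the medium dose and 190 and 227 CPM at the low dose (log2 fold change -0.32 ± 0.27, adjusted p = 1, edgeR), and fell to 50.02 and 47.5 CPM at the high dose. With 1 of the 4 libraries left out, the median of the immediate early genes was -0.21 to -0.13 and that of the keratins -0.24 to -0.22. That of the acute-phase genes was -0.38 without low dose replicate 2, -0.14 without medium dose replicate 2 and -0.13 without low dose replicate 3, which put 4 of 11 above 0. That of the mucins was -0.43 without low dose replicate 2 and -0.19 without low dose replicate 3. Of the immediate early genes 7 of 23 lay above 0 without low dose replicate 3. The keratins KRT7, KRT8 and KRT18 are also in the epithelial marker list, whose sum was lower at the medium dose, and its part in these values was not tested. Members of a list are not independent, and the counts describe these libraries.

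**Figure D5:**
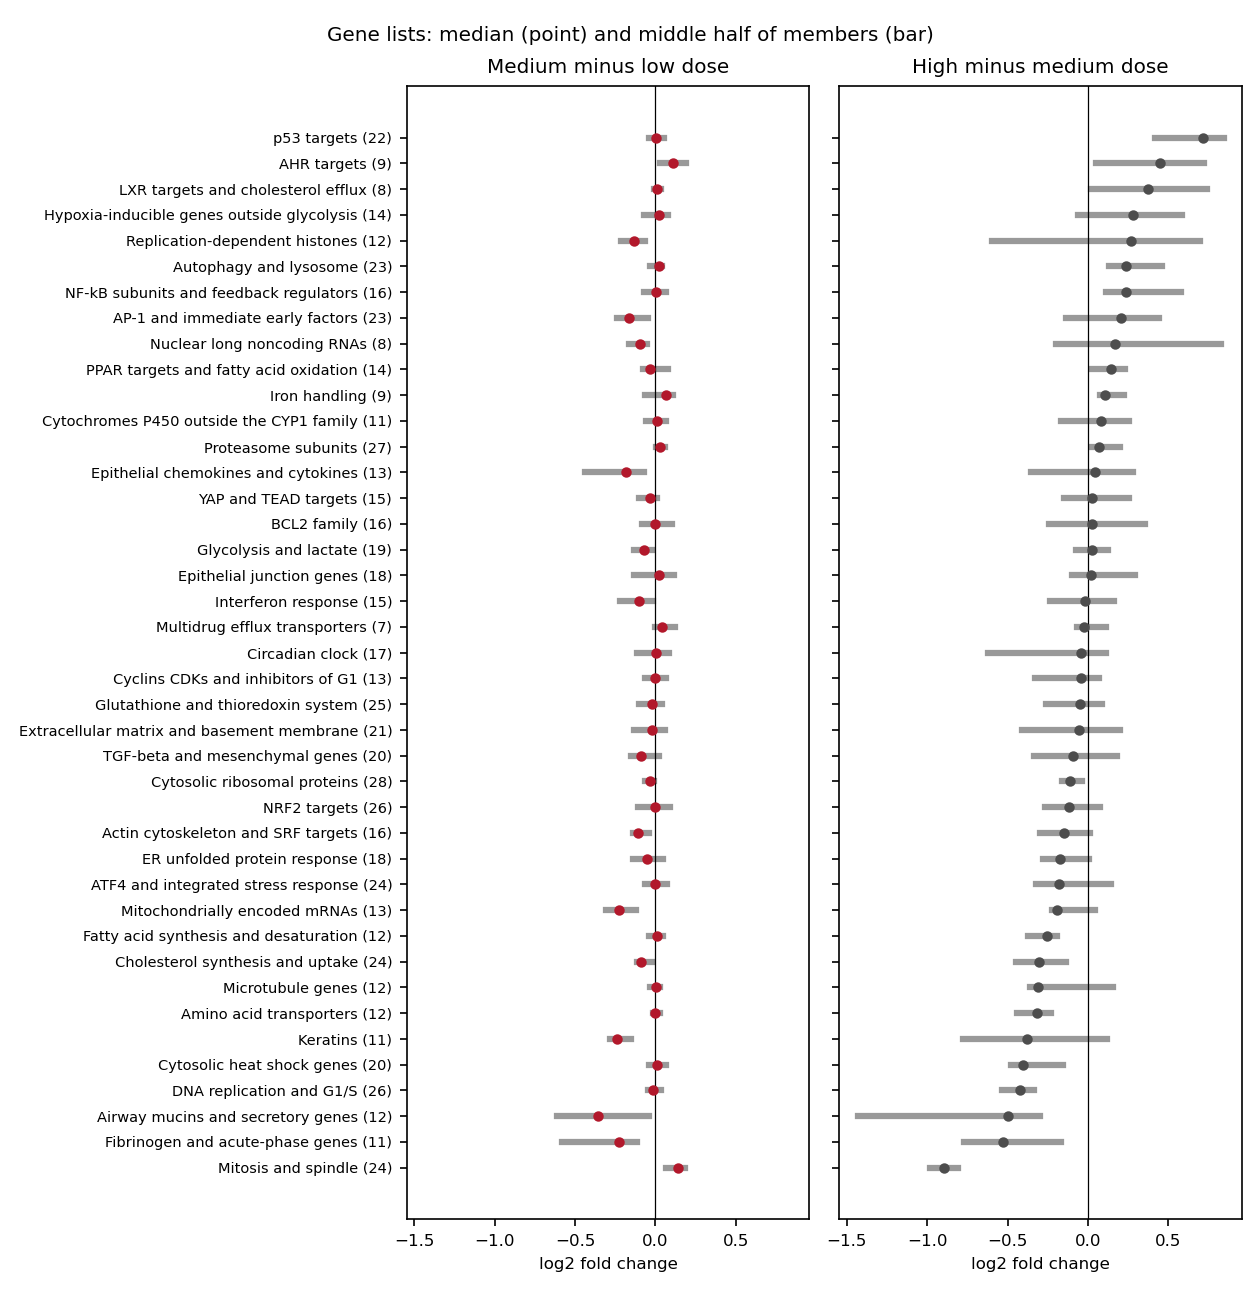
Median log2 fold change (point) and lower to upper quartile (bar) of the gene lists with at least 5 tested members, at medium minus low dose on the left and high minus medium dose on the right, with the number of genes tested in brackets, the log2 fold change on the horizontal axes and lists sorted by the right panel. On the left every median lies between -0.36 and 0.14, and on the right the p53 targets are at 0.72 and the mitosis genes at -0.90.

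The mitochondrially encoded mRNAs had 0 of 13 above 0 and a median log2 fold change of -0.23, with 0 at an unadjusted p under 0.05. Their value rested on low dose replicate 2: without it 12 of 13 lay above 0 and the median was 0.06. MT-ND4, a subunit of complex I, had 6225 and 6051 CPM at the medium dose, against 9072 and 6106 CPM at the low dose. Of the other lists, the 27 proteasome subunits had a median of 0.03 (21 above 0). The 26 genes of DNA replication and entry into S phase had -0.01 (9 above 0) and the 28 ribosomal proteins -0.04 (5 above 0). Some lists not described further also leaned below 0. Of 24 genes of cholesterol synthesis and uptake 4 lay above 0 (median -0.09). Of 19 glycolysis genes 4 did (median -0.07), and of 16 actin cytoskeleton genes 2 (median -0.11). None of their members passed in the edgeR fit over all libraries. The replication genes fell at the next step, 22 of 26 at high against medium dose, against 7.90% of all genes tested.

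The same step of dose was then compared between extracts. Polygalae Radix, a root known for triterpenoid saponins, had 2172 genes (11.8%) that passed between its medium and its low dose, and Menthae Herba, a mint known for menthol, had 32 (0.174%). The difference between the Aucklandiae Radix step and the Polygalae Radix step passed for 665 genes (3.61%), positive for 539 (2.93%) and negative for 126 (0.685%). EPRS1, a tRNA synthetase for glutamate and proline, had 261 and 257 CPM at the medium and 213 and 232 CPM at the low dose of Aucklandiae Radix. It had 89.4 and 111 CPM at the medium and 223 and 236 CPM at the low dose of Polygalae Radix, and the steps of the extracts differed by 1.41 on the log2 scale (adjusted p = 2.21e-13, edgeR). The nuclear receptor gene NR4A1, an immediate early gene, had 26.2 and 29.2 CPM at the medium and 34.8 and 34.8 CPM at the low dose of Aucklandiae Radix. It had 73.6 and 48.9 CPM at the medium and 36.2 and 34.3 CPM at the low dose of Polygalae Radix, a difference of -1.12 between the steps (adjusted p = 2.62e-05, edgeR). NR4A3 differed by -1.13 (adjusted p = 9.75e-05, edgeR).

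Polygalae Radix medium dose replicate 2 is of the other library class, at 53.3 CPM of ENSG00000282955, while the other 3 libraries of its step lie at 0.63 to 2.57 CPM. Without that library 303 genes passed, 278 positive and 25 negative, and without replicate 3 of the same dose 2698 passed. Leaving out other libraries of the 2 extracts gave counts between these, and 70 genes passed in a fit of the libraries of both extracts alone. Within the class, where 1 library stands for the Polygalae Radix medium dose and is assumed to vary like the other groups, 874 passed, 692 positive and 182 negative. Within it EPRS1 differed by 1.27 (adjusted p = 7.28e-12, edgeR), NR4A1 by -0.79 (adjusted p = 2.60e-06, edgeR) and NR4A3 by -0.94 (adjusted p = 0.00159, edgeR). PRKDC, AHNAK and SYNE1, genes of long transcripts, differed by 1.18, 1.18 and 1.05 within the class, against 1.52, 1.496 and 1.37 over all libraries. SYNE1 did not pass without Polygalae Radix medium dose replicate 2 (adjusted p = 0.0611, edgeR). NR4A2 and the noncoding RNA AC005261.1 did not pass within the class (adjusted p = 0.324 and 0.147, edgeR).

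Against Menthae Herba 1 gene differed (0.00544%). TIPARP, a mono-ADP-ribosyltransferase induced by the aryl hydrocarbon receptor, had 38.4 and 39.3 CPM at the medium and 33.5 and 38.6 CPM at the low dose of Aucklandiae Radix, with overlap. Menthae Herba gave 87.2, 90.3 and 88.7 CPM at its medium dose and 46.5, 50.5 and 46.5 CPM at its low dose. The steps differed by -0.78 (adjusted p = 2.54e-05, edgeR), and 1 gene passed whichever single library was left out. In Aucklandiae Radix TIPARP rose at the high dose, to 94.3 and 90.5 CPM, and so did CYP1A1, a further target of the receptor, which had 1.34 and 1.08 CPM at the low, 1.3 and 2.12 CPM at the medium and 6.86 and 7.32 CPM at the high dose. Of 9 targets of the receptor 0 passed at medium against low dose and 8 lay above 0, with a median of 0.11 (0.04 without low dose replicate 2 and 0.21 without low dose replicate 3). At high against medium dose 5 of them rose and 1 fell, against 7.72% and 7.90% of all genes tested.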

How the data were processed

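RNA of 60 A549 libraries was sequenced as 100 bp paired-end reads from a directional mRNA kit, per the labels' protocols. The authors deposited 1 table of expected counts for 60675 genes; the tools listed in the submitters' processing notes are STAR 2.7.3a, RSEM 1.3.3, FastQC 0.11.9 and Trim Galore 0.6.5, with the GRCh38 build. The annotation release and the strand setting were not given in the sources used here. Per the series description, libraries with low RNA were excluded as outliers. The wortmannin control was not analysed here.

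Expected counts, as deposited by the authors, were rounded to whole counts. Weakly expressed genes were removed with edgeR's filterByExpr, libraries were scaled with TMM, and 18396 genes were fitted over 57 libraries in 22 groups (the 3 groups of a single library were left out) with edgeR 4.0.16 (limma 3.58.1, R 4.3.3), which left 35 residual degrees of freedom. All contrasts come from that quasi-likelihood fit, each with Benjamini-Hochberg adjustment over all genes, called at 0.05. Levels are CPM scaled with TMM. DESeq2 1.42.0 served as an alternative. The code was tested on simulated data. Positions are from GENCODE 29, and promoters from RefSeq.

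The gene lists and the choice of comparison were made with earlier results of these data known. The rule for named genes took up to 15 genes each way for the medium against low comparison, 4 each way for each difference of steps among those whose log2 CPM averaged 2 or more, and, since under 5 genes passed, members of the NRF2, heat shock, ATF4, p53 and mitosis lists. The labels do not say that replicates are separate cultures, so p-values measure the spread between libraries, which may be technical. Replicates of a dose differed beyond sampling noise (chi-square per gene of 2.67 at the medium and 9.77 at the low dose). Intervals of fold changes hold this spread as estimated over all groups.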

Additional observations from a re-analysis of the deposited data

Results flagged for a closer look

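These results were singled out because the same step, medium against low dose, differed between extracts by a direct test (edgeR). Against Polygalae Radix 665 genes differed. On the log2 scale the difference, Aucklandiae Radix minus Polygalae Radix, was 1.52 for PRKDC, 1.496 for AHNAK, 1.41 for EPRS1 and 1.37 for SYNE1. It was -1.13 for NR4A3, -1.12 for NR4A1, -1.10 for AC005261.1 and -1.02 for NR4A2. Of these genes PRKDC had 833 and 798 CPM at the medium and 616 and 764 CPM at the low dose of Aucklandiae Radix, against 210 and 370 CPM at the medium and 687 and 718 CPM at the low dose of Polygalae Radix. The lower value of each Polygalae Radix pair for PRKDC, AHNAK and SYNE1 at the medium dose was in replicate 2, the library of the other class, and the part of that library in the differences was not tested beyond the values without it. Against Menthae Herba the difference for TIPARP was -0.78.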

How the results depend on the processing

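For medium against low dose the count of 1 gene became 85 (33 higher, 52 lower) with no filter on low counts, 16 with the DESeq2 Wald test, 24 with the 6 libraries of the extract, 31 with the 38 libraries of the class and 34 with the 4 libraries alone. It was 0 to 1 with 1 library left out. High against medium dose gave 5282 genes with the extract's libraries, 4949 within the class and 1753 to 1904 with 1 library left out, and high against low dose gave 5800, 5454 and 2106 to 2265. The difference between the steps gave 1963, 1748 and 191 to 542. The difference from Polygalae Radix gave 1024 with no filter, 70 with the libraries of both extracts and 303 to 2698 with 1 library left out. That from Menthae Herba gave 91 with no filter, 4 with DESeq2, 3 within the class and 1 with any library left out. The fits of 6 and 4 libraries have 3 and 2 residual degrees of freedom. Leaving out 1 library of a pair assumes that the other varies like the remaining groups. Among the fold changes of named genes, 1553 kept their side of the threshold, with the same direction or a shift under 1 SE. In 67 the gene passed newly and in 30 it no longer passed. The other 4 changed sign by 1 SE or more without being called. None changed sign while called. The causes were not tested.

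The difference of replicate 2 from replicate 3 was correlated between doses across genes. The correlation was -0.00413 between medium and low dose, 0.0057 between medium and high dose and -0.0305 between low and high dose. It takes in all 18396 genes, weakly expressed ones included, so it cannot decide whether replicate numbers pair the libraries. With the replicate number within each library set (the first part of the library names) as a block (27 residual degrees of freedom) the counts were 16 for medium against low dose, which hold PSD4 (adjusted p = 0.0161, edgeR) and all 9 genes that passed in the 4 other fits, 3611 for high against medium dose, 4022 for high against low dose, 980 for the difference between steps, 1114 for the difference from Polygalae Radix and 2 for that from Menthae Herba.

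Depth limits weakly expressed genes. Leaving out low dose replicate 2 turned the median of the mitochondrially encoded mRNAs from below 0 to 0.06, and the list medians and length trends without single libraries were added after the data were seen.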

Other observations

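The gene of the chemokine receptor CXCR5, noticed after its values were seen, had 0 counts in both medium dose libraries and 5.62 and 7.60 CPM at the low dose. Against a floor of 3 counts per library, which is 0.105 and 0.114 CPM here, the medium dose was at least 58.1-fold lower. At the high dose it had 1.46 and 5.92 CPM. CXCR5 was at 0 in 17 of the 57 libraries fitted, and in 8 groups some replicates were at 0 while others were not. Its adjusted p was 1 in the edgeR fit over all libraries, although it passed in 3 of the 4 other fits. Expected counts are estimates that assign shared reads between overlapping transcripts, so a 0 need not mean that no read fell on the gene. IL11, a cytokine of the IL-6 family, also passed in 3 of the 4 other fits and was chosen after its values were seen. It had 19.5 and 20.0 CPM at the medium dose and 30.8 and 27.5 CPM at the low dose (adjusted p = 0.352, edgeR).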
